A study of Mus musculus with 12 samples.

Results

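Lce1g, Igfn1, Abra and Cd207 are 4 genes with few reads in mouse sciatic dorsal root ganglia (DRG), the ganglia that hold the cell bodies of the sensory neurons of the sciatic nerve. They are 4 of the 44345 gene names counted and 4 of the 16238 genes that passed the filter on low counts. They were chosen by their fold changes, because each ranked among the largest rises after sciatic nerve axotomy (SNA) in these samples. Their differences between axotomised and sham groups are therefore given as values with a standard error (SE) and without a test. Tests are kept for the housing comparisons, which did not choose the genes but use some of the same samples.

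RNA of L4–L6 DRG was sequenced from C57BL/6 mice aged 5 to 8 weeks, with 3 samples in each of 4 groups, each a pool from 2 mice. Mice lived for 10 days in standard housing (SH) or in environmental enrichment (EE) and then had either sham surgery, in which the sciatic nerve was exposed without being cut, or SNA, in which it was transected. The DRG were taken 24 h after surgery. The sham groups are called SH Sham and EE Sham and the axotomised groups SH SNA and EE + SNA. The study's text describes EE Sham as coming from an earlier dataset, while the labels give no run or date. An effect of EE Sham and of that dataset therefore cannot be told apart. This limit holds for EE Sham against SH Sham, for EE + SNA against EE Sham and for the interaction of housing and surgery. The pools held 11343579 to 22871460 counted reads, with TMM factors (edgeR's correction for composition) of 0.978 to 1.02, so that 1 read was worth less than 0.1 CPM (read count scaled to the library size). Injury genes marked the labels as given, since Atf3, a transcription factor induced in axotomised sensory neurons, rose by a log2 fold change of 2.12 in SH SNA and 2.02 in EE + SNA against SH Sham (adjusted P-values of 7.4e-08 and 2.1e-07, edgeR's quasi-likelihood test).

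The proteins of these genes are known from other tissues. Lce1g encodes a late cornified envelope protein, one of a family of small structural proteins that keratinocytes deposit beneath the membrane as skin hardens, and its gene lies in the epidermal differentiation complex together with the Sprr genes. Igfn1 encodes a protein of immunoglobulin-like and fibronectin type III domains at the Z-disc of skeletal muscle, where it binds the protein KY, and Abra encodes an actin-binding protein of striated muscle, which promotes actin polymerisation and thereby the nuclear entry of MRTF, the coactivator of serum response factor (SRF). Cd207 encodes langerin, the C-type lectin from which Birbeck granules of Langerhans cells form, and is used as a marker of these epidermal dendritic cells. In a bulk sample, more cells of a type and more RNA per cell cannot be told apart.

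In the GENCODE M21 annotation of GRCm38, all 4 genes are on the minus strand. Lce1g (ENSMUSG00000027919) lies at chr3:92750148-92752338 with 2 exons, Igfn1 (ENSMUSG00000051985) at chr1:135953578-136006342 with 27 exon blocks, Abra (ENSMUSG00000042895) at chr15:41864076-41869720 with 2 exons and Cd207 (ENSMUSG00000034783) at chr6:83671215-83677857 with 6 exons. No other annotated gene shares exon bases with any of them on either strand. Read sharing with similar genes was a limit for Lce1g, in which 161 of 876 windows of 50 bases (18.4%) also occurred in transcripts of other genes, nearly all of them of the Lce1 group. For windows of 100 bases this was 14 of 826. Igfn1 and Cd207 had no such window at either length, and Abra had 31 of 2930 windows at 50 bases and none at 100.

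RefSeq gave a promoter sequence for 3 of the 4 members on GRCm38.p6, and the 250 bases before each start site are shown 5′ to 3′ along the gene's own strand, because transcription factors induced by axotomy bind short motifs of this kind. The motifs searched on both strands were the AP-1 motif TGANTCA, which Jun-containing dimers bind, the cAMP response element TGACGTCA, which holds no AP-1 motif, and the CArG box bound by SRF. Capitals mark a match.
Lce1g, chr3:92752339-92752588, minus strand: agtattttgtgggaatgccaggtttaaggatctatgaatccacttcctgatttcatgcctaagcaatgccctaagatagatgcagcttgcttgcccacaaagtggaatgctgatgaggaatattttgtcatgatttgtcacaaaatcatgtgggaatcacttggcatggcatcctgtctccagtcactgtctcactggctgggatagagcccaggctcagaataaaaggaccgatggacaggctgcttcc
Igfn1, chr1:136006343-136006592, minus strand: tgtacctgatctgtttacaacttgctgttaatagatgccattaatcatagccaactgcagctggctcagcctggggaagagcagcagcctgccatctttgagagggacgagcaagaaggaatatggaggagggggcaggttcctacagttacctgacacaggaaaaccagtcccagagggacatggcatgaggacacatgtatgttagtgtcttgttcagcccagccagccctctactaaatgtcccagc
Cd207, chr6:83677858-83678107, minus strand: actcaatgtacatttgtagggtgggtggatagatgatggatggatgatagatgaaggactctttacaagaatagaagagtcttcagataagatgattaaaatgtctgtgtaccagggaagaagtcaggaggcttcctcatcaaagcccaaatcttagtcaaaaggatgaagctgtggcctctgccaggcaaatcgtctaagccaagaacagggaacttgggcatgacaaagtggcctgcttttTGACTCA

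Of the motifs, only the Cd207 promoter held one, an AP-1 match TGACTCA whose first base was 7 bases before the start site. The promoters of Lce1g and Igfn1 held no match to any of the 3 motifs in these 250 bases. Among the 32851 RefSeq promoter windows of that length, 6.75% held an AP-1 match, 1.55% the cAMP response element and 1.47% a CArG box. Sprr1a, an injury-induced gene from the same complex as Lce1g, had 2 AP-1 matches TGAGTCA, starting 146 and 116 bases before its start site.

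Lce1g had 3, 5 and 4 reads in the 3 SH Sham pools and 3, 6 and 0 in the EE Sham pools. After axotomy it had 22, 26 and 35 reads in SH SNA and 24, 41 and 34 in EE + SNA. Every axotomised pool was above every sham pool, and the highest pool held 41.8% of the summed CPM in SH SNA and 41.1% in EE + SNA. In CPM the groups had means of 0.267 ± 0.0912 (SD, n = 3) in SH Sham, 0.242 ± 0.229 in EE Sham, 2.22 ± 0.552 in SH SNA and 2.22 ± 0.483 in EE + SNA. Against SH Sham the log2 fold change was 3.04 ± 0.43 (SE) in SH SNA and 3.02 ± 0.43 in EE + SNA, and against EE Sham it was 3.10 ± 0.63 in EE + SNA. Both sham groups overlapped, as did both axotomised groups. In EE Sham, replicate 2 held 62.7% of the summed CPM.

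Cd207 varied little among the axotomised pools. It had 4, 6 and 9 reads in SH Sham, 5, 6 and 3 in EE Sham, 25, 24 and 28 in SH SNA and 24, 42 and 23 in EE + SNA, where the pool with 42 reads was also the most deeply sequenced. In CPM, the sham pools lay between 0.234 and 0.601 and the axotomised pools between 1.83 and 2.23, with no overlap. The group means were 0.422 ± 0.183 in SH Sham, 0.383 ± 0.121 in EE Sham, 2.05 ± 0.160 in SH SNA and 1.94 ± 0.171 in EE + SNA. The log2 fold changes were 2.29 ± 0.36 and 2.19 ± 0.37 against SH Sham and 2.30 ± 0.38 against EE Sham.

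Abra had the largest fold changes of the 4 genes against SH Sham, from the fewest sham reads. SH Sham held 2, 3 and 0 reads and EE Sham 0, 5 and 4, while SH SNA held 22, 31 and 11 and EE + SNA 19, 43 and 32. The lowest axotomised pool, SH SNA 3 at 0.875 CPM, was still above the highest sham pool, EE Sham 2 at 0.379 CPM. Mean levels were 0.111 ± 0.108 CPM in SH Sham, 0.235 ± 0.205 in EE Sham, 1.72 ± 0.872 in SH SNA and 2.04 ± 0.469 in EE + SNA. The log2 fold changes were 3.87 ± 0.86 and 4.12 ± 0.71 against SH Sham and 3.0 ± 0.60 against EE Sham. With 5 reads in all of SH Sham, the size of the first pair rests on few counts. SH Sham 2 held 64.7% of the summed CPM of that group and SH SNA 2 held 50.6% of its own. A pool with 0 reads allows up to 3 counts, which is 0.200 CPM in SH Sham 3 (counting error only).

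Igfn1 had the largest share of a group's summed CPM in a single pool. It had 3, 10 and 7 reads in SH Sham, 23, 85 and 34 in SH SNA and 21, 42 and 26 in EE + SNA. In EE Sham it had 3, 27 and 5 reads, and EE Sham 2 at 2.05 CPM lay inside the range of EE + SNA (1.83 to 2.09 CPM). SH SNA 2 alone held 61.7% of the summed CPM of its group at 7.17 CPM, and EE Sham 2 held 75.2% of its group. The group means were 0.453 ± 0.271 CPM in SH Sham, 0.908 ± 0.989 in EE Sham, 3.88 ± 2.89 in SH SNA and 1.93 ± 0.144 in EE + SNA. Against SH Sham the log2 fold changes were 3.11 ± 0.64 in SH SNA and 2.11 ± 0.41 in EE + SNA, and against EE Sham the value was 1.01 ± 0.52.

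**Figure D1:**
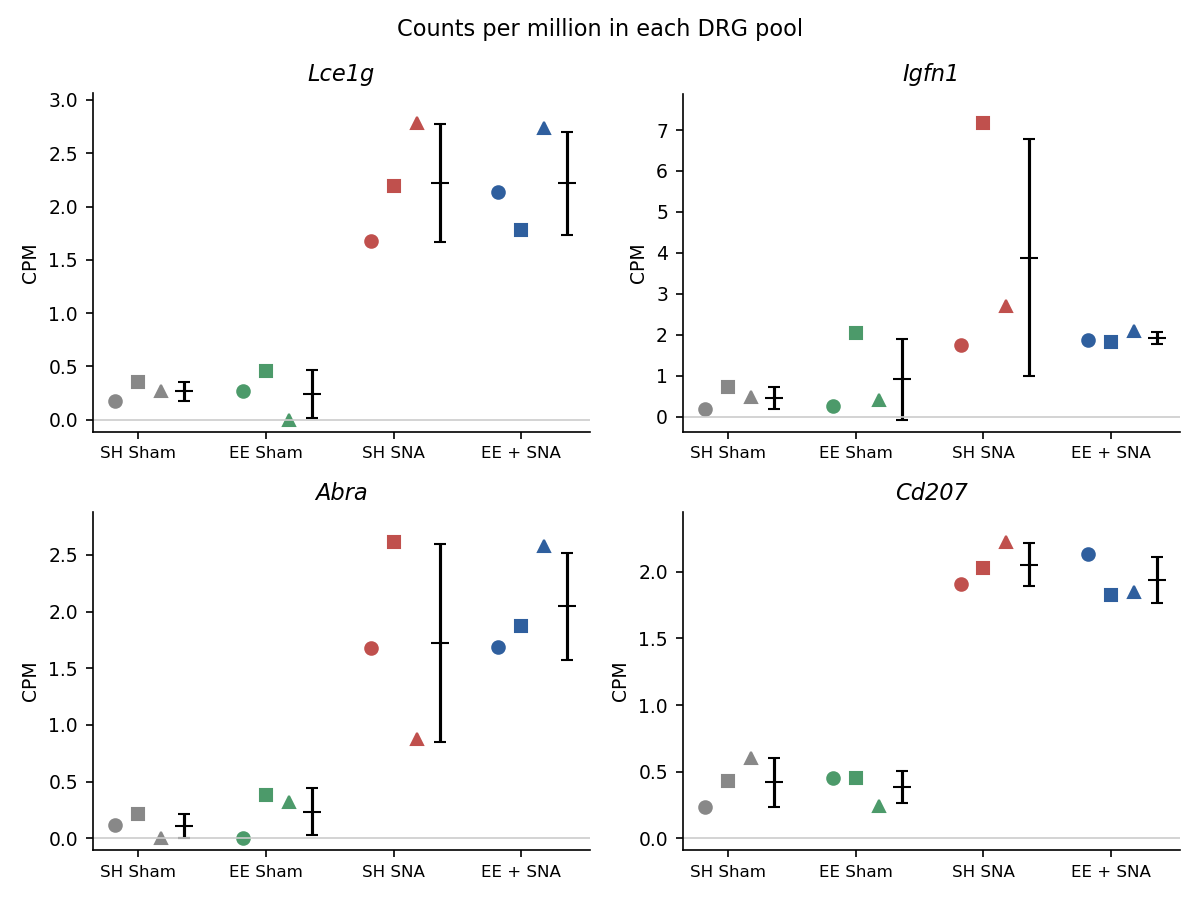
CPM of Lce1g, Igfn1, Abra and Cd207 (linear y axes) in the 3 pools of each group, with circles, squares and triangles for replicates 1, 2 and 3, and the group mean and SD in black beside them. Axotomised pools lie above all sham pools for Lce1g, Abra and Cd207, whereas for Igfn1 EE Sham 2 at 2.05 CPM lies among the EE + SNA pools and SH SNA 2 stands apart at 7.17 CPM.

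The absence of overlap between groups is common among all genes. Every axotomised pool was above every sham pool for all 4 members in SH SNA and in EE + SNA against SH Sham, and for 3 of the 4 in EE + SNA against EE Sham, all except Igfn1. Among all genes tested this held for 14.3%, 16.1% and 13.4% in the same order. Because these contrasts chose the genes, nothing is read from the counts.

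By log2 fold change among the 16238 genes tested, Abra ranked 4 in SH SNA, Igfn1 10, Lce1g 13 and Cd207 51. The neighbours in that order were mostly muscle genes. Abra stood between Csrp3, which encodes a muscle LIM protein, and Myh1, a fast myosin heavy chain, and Igfn1 between Mb, which encodes myoglobin, and Xirp2, which encodes an actin-binding protein of striated muscle. Lce1g stood between Npy, the neuropeptide Y gene that sensory neurons switch on after nerve injury, and Acta1, the skeletal muscle actin gene. In EE + SNA against SH Sham, Abra ranked 1, Lce1g 4, Cd207 18 and Igfn1 24, and against EE Sham Lce1g ranked 3, Abra 5, Cd207 10 and Igfn1 123. Among genes of at least 1 CPM on average, Abra ranked 1 of 15327 in EE + SNA against SH Sham, whereas in SH SNA its average was 0.917 CPM and it fell under that limit.

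Per base of transcript the genes are ordered differently from their counts. In SH SNA, FPKM was 2.38 ± 0.594 for Lce1g, 1.33 ± 0.105 for Cd207, 0.971 ± 0.486 for Abra and 0.427 ± 0.316 for Igfn1, the longest transcript of the 4 at 8989 bases. In SH Sham, Lce1g and Cd207 were at 0.290 ± 0.10 and 0.277 ± 0.121 FPKM, which did not differ beyond their spread, and Abra and Igfn1 were at 0.0630 ± 0.0615 and 0.0506 ± 0.0304. By mean CPM over the 12 pools, the 4 genes stood between the 5.88 and the 12.4 percentile of the genes tested.

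Skeletal muscle RNA varied between pools and was followed through 30 genes of sarcomere, energy metabolism and calcium release. Their summed level was 26.5, 46.0 and 263 CPM in SH Sham, 37.1, 331 and 134 in EE Sham, 97.6, 1823 and 110 in SH SNA and 240, 219 and 337 in EE + SNA. SH SNA 2 was far above all other pools, with Acta1 at 263 CPM, and SH Sham 1 was the lowest. The sham and axotomised pools overlapped, since SH Sham 3 and EE Sham 2 were above SH SNA 1 and SH SNA 3. Of the 26 muscle genes tested, 1 rose in SH SNA, Tnnc1, which encodes the troponin C of slow and cardiac muscle (adjusted P-value 0.0483), and 24 had an unadjusted P-value under 0.05. The likelihood ratio test of edgeR called 9, and without the filter on low counts 29 of 30 were called. The median log2 fold change was 2.68, against 0.0047 over all genes tested. Of all 16238 genes tested, 6.06% were called higher and 5.17% lower in this comparison, and 4086 had an unadjusted P-value under 0.05. Without SH SNA 2 the muscle median was 0.023 and 0 of 26 genes were called by edgeR, and without SH SNA 1, SH SNA 3 or SH Sham 3 the number called was 11, 10 and 2. Without SH Sham 1 or without SH Sham 2 the number called was also 0, with medians of 2.13 and 2.31.

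In EE + SNA against SH Sham, 2 of 26 muscle genes rose, Casq1, which encodes a calcium store protein of the sarcoplasmic reticulum, and Actn2, a Z-disc actinin (adjusted P-values of 0.0285 and 0.0492), with a median of 1.26 and 14 at an unadjusted P-value under 0.05, where 6.87% of all genes were called higher and 5.63% lower. Of all 16238 genes, 4421 had an unadjusted P-value under 0.05 in this comparison. Without the filter on low counts 23 of 30 muscle genes were called. The number also depended on 1 control pool, as it was 23 without SH Sham 3, and it was 4 without EE + SNA 2 and 0 without any of the other 4 pools. In EE + SNA against EE Sham, 0 of 26 passed edgeR's adjusted threshold, 2 had an unadjusted P-value under 0.05 and DESeq2 called 0 of the 17 for which it gave an adjusted value, while 2.51% of all genes were called higher and 2.33% lower. Of all 16238 genes, 3353 had an unadjusted P-value under 0.05 against EE Sham. Without the filter 12 of 30 muscle genes were called. Without EE Sham 2 the number was 11, and without EE + SNA 2 it was 1.

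**Figure D2:**
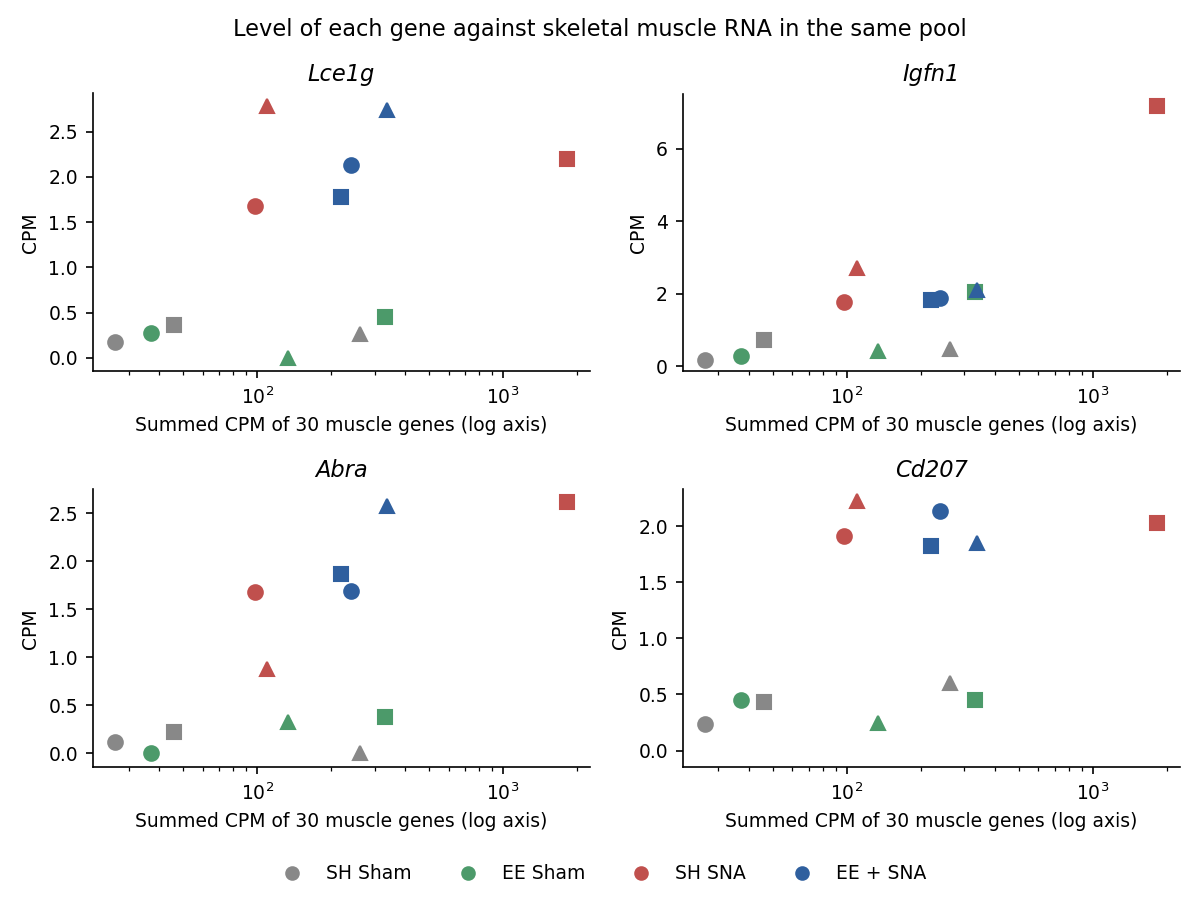
CPM of each member (linear y axis) against the summed CPM of 30 skeletal muscle genes in the same pool (log x axis), 12 pools coloured by group with circles, squares and triangles for replicates 1, 2 and 3. Igfn1 is highest in SH SNA 2, where the muscle sum is 1823 CPM, and Abra at 2.62 CPM is also at its highest there, while Lce1g and Cd207 at 2.19 and 2.03 CPM lie between the other pools of SH SNA.

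Set against this measure, Igfn1 was highest in the pool with the highest muscle sum in SH SNA, EE Sham and EE + SNA, at 7.17, 2.05 and 2.09 CPM. Abra was highest in the same 3 pools, at 2.62, 0.379 and 2.58 CPM, and in EE Sham its order of 0, 0.379 and 0.325 CPM was that of the muscle sums. In SH Sham, the pool with the highest muscle sum, SH Sham 3, was the lowest for Abra at 0 reads and lay between the other pools for Igfn1 at 0.468 CPM. Lce1g and Cd207 in SH SNA 2 lay between the other pools of that group, at 2.19 and 2.03 CPM. In other groups they too were at times highest in the pool with the highest muscle sum. Lce1g was highest in EE Sham 2 and EE + SNA 3, at 0.455 and 2.74 CPM, but not in SH Sham 3, at 0.267 CPM. Cd207 was highest in SH Sham 3 and EE Sham 2, at 0.601 and 0.455 CPM, but not in EE + SNA 3, at 1.85 CPM.

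The members were also scaled to the muscle genes, as CPM per 1000 CPM of the muscle sum. Igfn1 was at 6.64, 15.6 and 1.78 in SH Sham, 7.28, 6.18 and 3.03 in EE Sham, 18, 3.94 and 24.6 in SH SNA and 7.78, 8.33 and 6.20 in EE + SNA, so that sham and axotomised pools overlapped on this scale. Abra was at 4.42, 4.67 and 0 in SH Sham, 0, 1.14 and 2.42 in EE Sham, 17.2, 1.44 and 7.96 in SH SNA and 7.04, 8.53 and 7.63 in EE + SNA. All axotomised pools but SH SNA 2 were above the sham pools for Abra. The share of the muscle genes in the levels of Igfn1 and Abra beyond these values was not tested.

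Leaving out single pools kept all members higher after axotomy. Their choice by these contrasts made that likely, so only the sizes are described. Without SH SNA 2, the log2 fold change of SH SNA against SH Sham was 3.05 ± 0.48 for Lce1g, 2.33 ± 0.46 for Igfn1, 3.46 ± 0.82 for Abra and 2.30 ± 0.41 for Cd207. Their ranks by fold change were then 4, 13, 1 and 14, but without SH Sham 3 they were 47, 45, 39 and 56. The ranks also depend on which genes are counted, since without the filter on low counts Lce1g ranked 161, Igfn1 156, Abra 33 and Cd207 475 of 26122 genes. The size of the change in Abra depended on which SH Sham pool was left out. Without SH Sham 2 it was 4.60 ± 1.27 in SH SNA and 4.86 ± 1.03 in EE + SNA against SH Sham. Without SH Sham 3, the pool with 0 reads, it was 3.33 ± 0.79 and 3.58 ± 0.62. Without EE Sham 2, Igfn1 was at 2.45 ± 0.46 in EE + SNA against EE Sham, compared with 1.01 with that pool, and Lce1g at 3.98 ± 0.92. With the log2 muscle sum as a covariate over all 12 pools, chosen after these values were seen, the log2 fold changes against SH Sham were 2.95 and 2.93 for Lce1g, 3.33 and 3.66 for Abra, 2.2 and 2.10 for Cd207, and 2.09 and 1.36 for Igfn1 in SH SNA and EE + SNA. The value of Igfn1 against EE Sham in that fit was 0.71 ± 0.42.

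**Figure D3:**
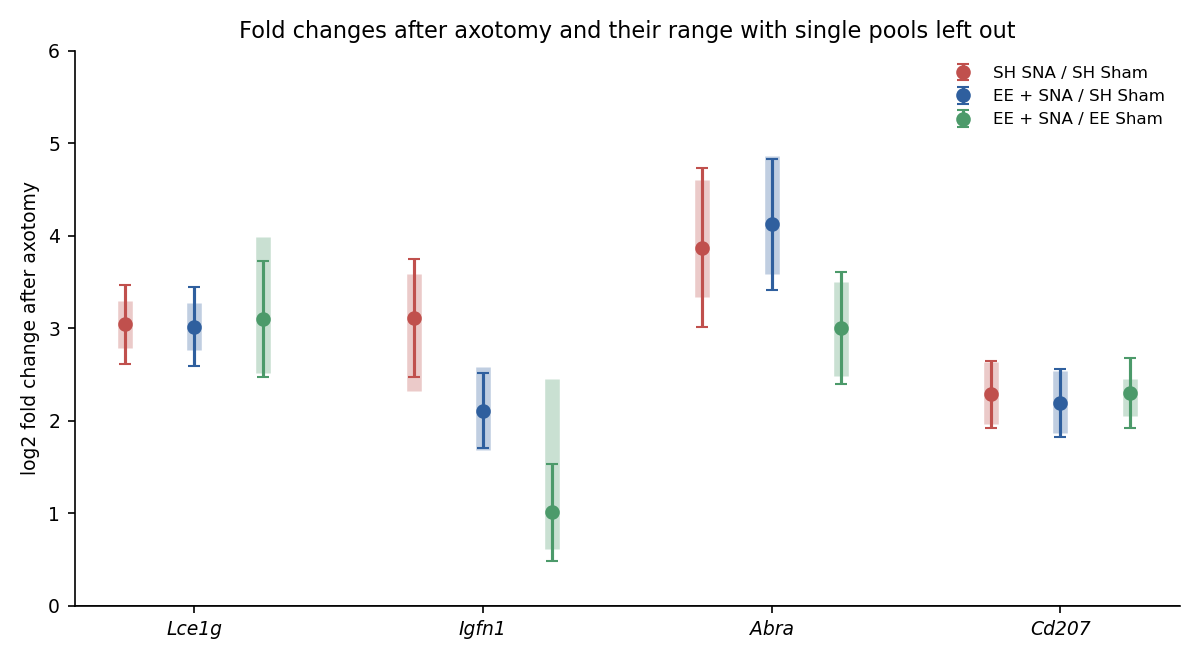
Log2 fold change of each member after axotomy (y axis) in the 3 comparisons, with dots for the estimate, thin bars for its SE and broad pale bars for the range when each of the 6 pools was left out in turn. All ranges lie above 0, which the choice of the genes by these contrasts made likely. The widest is that of Igfn1 in EE + SNA against EE Sham, from 0.61 to 2.45.

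Genes that work beside Igfn1 and Abra were read from lists chosen with earlier results of these data known. Of 15 genes of the Z-disc and of KY's partners, 11 were tested and 3 rose in SH SNA, 1 in EE + SNA against SH Sham and 0 against EE Sham, beside 6.06%, 6.87% and 2.51% of all genes called higher. At an unadjusted P-value under 0.05 the numbers were 9, 7 and 2, beside 4086, 4421 and 3353 of all 16238 genes. Flnc, which encodes the muscle filamin that KY binds, rose by 1.61 ± 0.24 in SH SNA and 0.75 ± 0.17 in EE + SNA against SH Sham, on the log2 scale. Its sham pools lay between 5.27 and 8.87 CPM, and SH SNA 2 was the highest of all at 26.7 CPM. The other 2 called in SH SNA were Nrap, a gene of myofibril assembly, at 2.53 and Cryab, the small heat shock protein alpha B crystallin, at 0.32. The medians of the list were 2.03, 0.81 and 0.37 in the 3 comparisons.

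Of 26 genes of actin, MRTF and SRF signalling, all were tested. In SH SNA 5 rose, in EE + SNA 9 rose against SH Sham and 3 against EE Sham, beside the same shares of all genes, with medians over the list of 0.081, 0.10 and 0.098. Ankrd1, an SRF target that encodes an ankyrin repeat protein of stressed striated muscle, rose in all 3 comparisons, by 2.02 ± 0.56, 2.66 ± 0.49 and 2.48 ± 0.61. Like Abra it had few reads, with 0 to 0.406 CPM in sham pools and 0.675 to 1.69 CPM in axotomised pools. Ankrd2, a muscle gene of the same family, rose in SH SNA by 3.43 ± 1.17, where SH SNA 2, the pool with the most muscle RNA, was at 10.2 CPM. Rhoc, which encodes a small GTPase, rose by 0.62, 0.61 and 0.58, and Mkl1, which encodes MRTF-A, by 0.39, 0.37 and 0.42. Acta2 and Tagln, SRF targets of smooth muscle, rose only in the comparison of EE + SNA with SH Sham among the 3, by 0.77 and 0.74, and the difference between the comparisons was not tested.

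The Lce family was read as counts, since 13 of its 21 genes had no read in any pool and 2 passed the filter. All 5 members with at least 10 reads had more reads in axotomised than in sham pools. Of these, Lce1g was chosen for its rise. Lce1a1, Lce1e and Lce1f, with 0, 1 and 3 sham reads, reached the limit only through the axotomised pools. The share over all genes with that many reads was not computed, so nothing is read from this count. Apart from Lce1g, the family had 28 reads in 82233976 counted in the sham pools and 127 in 84389139 counted in the axotomised pools. Lce6a, the other gene that passed the filter, had 1 to 7 reads in sham pools and 5 to 15 in axotomised pools, and rose by 1.76 ± 0.54 in SH SNA (adjusted P-value 0.0423). In EE + SNA it was at 1.46 ± 0.58 against SH Sham (adjusted P-value 0.102) and 1.53 ± 0.61 against EE Sham (0.146). No sham pool of Lce6a reached the filter's minimum count of 10, so it could be tested only through the axotomised pools. Nothing is therefore read from these tests.

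The remaining Lce1 genes with 10 reads or more share transcript sequence with Lce1g. Lce1f had 3, 0 and 0 reads in SH Sham, none in EE Sham, 4, 3 and 4 in SH SNA and 5, 8 and 7 in EE + SNA. Lce1e had 1 read in the 6 sham pools and 15 in the axotomised pools, but 0 in SH SNA 2 and SH SNA 3. Lce1a1 had no read in a sham pool and 1 to 4 in each axotomised pool. Since these transcripts share 50-base windows with Lce1g, how the reads were divided among them is uncertain.

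Sprr1a, whose product is a cornified envelope precursor in skin and an injury-induced protein of sensory neurons, was far more abundant than the Lce genes. It had 79 to 202 reads in the sham pools and 343 to 698 in the axotomised pools, without overlap. It rose by 2.01 ± 0.21 in SH SNA and 1.53 ± 0.26 in EE + SNA against SH Sham and by 1.80 ± 0.27 against EE Sham, with adjusted P-values of 9.1e-05, 0.00239 and 0.00278. Of the 16 Sprr genes it was the one that passed the filter, and 8 had no read.

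**Figure D4:**
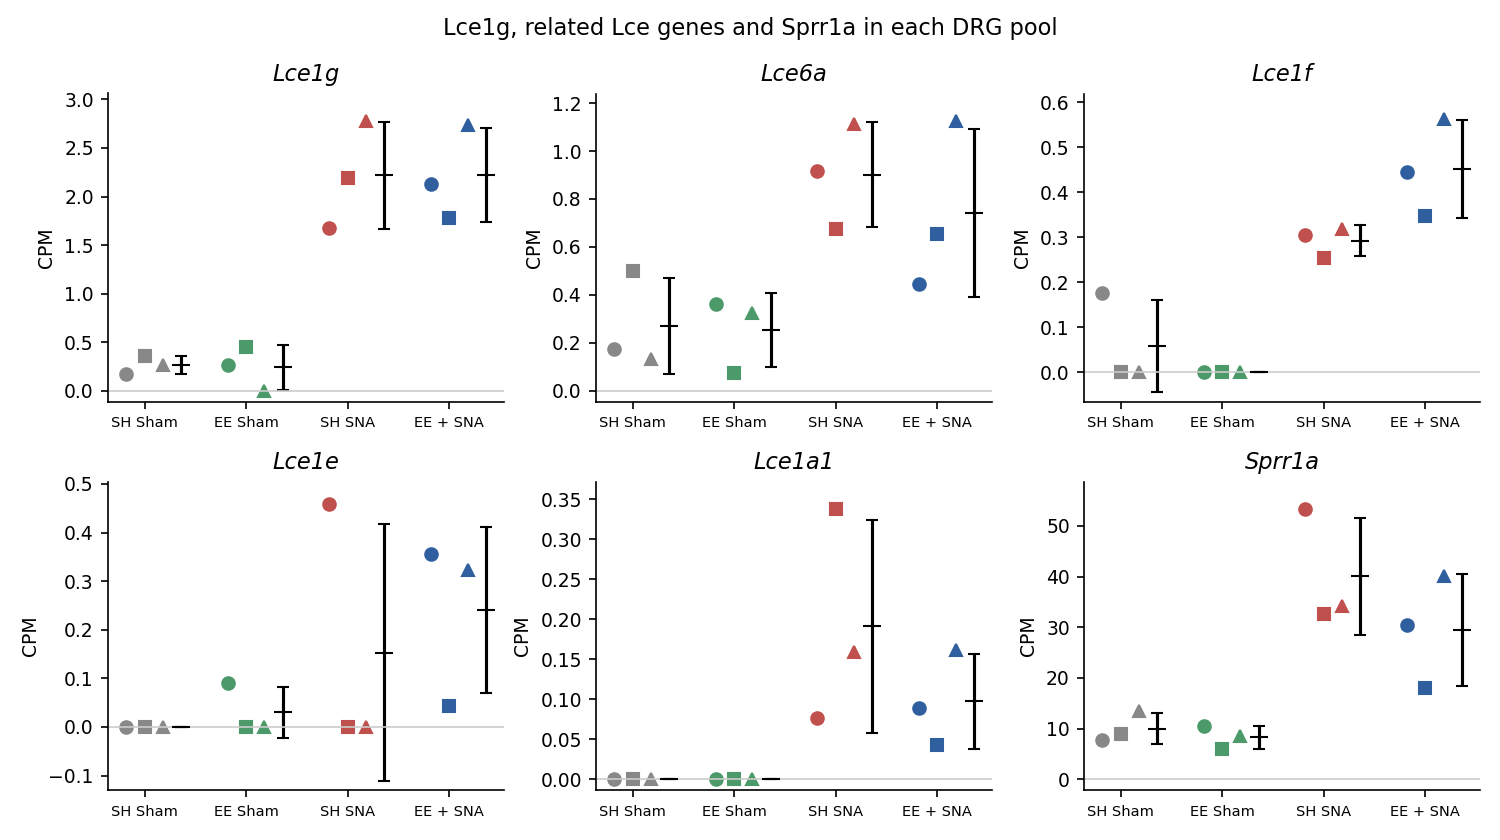
CPM (linear y axes with different ranges) of Lce1g, 4 related Lce genes and Sprr1a in the 3 pools of each group, with circles, squares and triangles for replicates 1, 2 and 3, and the mean and SD in black. Each gene is higher on average after axotomy, Sprr1a with 343 to 698 reads and Lce1f with 3 to 8 reads in axotomised pools.

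Lce1g and Cd207 were set beside other markers of the cells in which they are usually found. Of 20 keratinocyte genes, 5 passed the filter and 0 of these were called in any of the 3 axotomy comparisons by edgeR or at an unadjusted P-value of 0.05. Among all 16238 genes, 4086, 4421 and 3353 had an unadjusted P-value under 0.05 in the 3 comparisons. The median log2 fold changes of the 5 were −0.079, −0.016 and 0.11, against 0.0047, 0.0047 and 0.0037 over all genes tested. Krt5, the keratin of basal keratinocytes, had 1 read in all 12 pools, and Flg, Flg2, Ivl and Casp14, which act in the outer layers of skin, had none. Others were detected, with 64 reads of Krt14, the partner keratin of Krt5, 86 of Krtdap, 90 of Dmkn, 45 of Lor and 183 of Krt1. Krt14 lay between 0.143 and 0.455 CPM in sham pools, 0.239 and 0.675 CPM in SH SNA and 0.564 and 0.711 CPM in EE + SNA, and was too low to be tested. The summed level of the list was 7.75 to 9.75 CPM in sham pools and 8.65 to 12 CPM in axotomised pools. Krt10 and Sbsn were the most abundant at 2.28 and 2.01 CPM on average. Krt6a, a keratin gene outside this list, ranked 14 by log2 fold change in EE + SNA against EE Sham. It was at 2.12, with 0.851 CPM on average in those pools, and its test is not reported here.

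Of 14 dendritic and Langerhans cell genes, 11 passed the filter. Their summed level was 176 to 190 CPM in sham pools and 183 to 203 CPM in axotomised pools, and most of it was Cdh1, the E-cadherin gene, at 131 CPM on average. Of these, 1, 2 and 1 rose in the 3 comparisons, beside 6.06%, 6.87% and 2.51% of all genes. Zbtb46, which encodes a transcription factor of classical dendritic cells, rose in all 3 comparisons by 0.73, 0.70 and 0.54, and Irf8, a factor of dendritic cell development, by 0.76 in EE + SNA against SH Sham. Flt3, at 21.7 CPM on average, was at −0.23, −0.21 and −0.15 and was not called, and Cdh1 was at 0.022, −0.022 and 0.0032. In the 3 comparisons 9, 8 and 10 of the 11 were above 0, beside 8282, 8261 and 8249 of all 16238 genes. The medians of the 11 were 0.15, 0.40 and 0.37. Epcam, an adhesion molecule of Langerhans cells, had 20 reads in the 12 pools together, at 0 to 0.338 CPM. Ccr7, which guides migrating dendritic cells, and Xcr1, a receptor of cross-presenting dendritic cells, had 42 and 27 reads.

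Other cell markers shifted between pools as well, and their calls stand beside 6.06%, 6.87% and 2.51% of all genes called higher and 5.17%, 5.63% and 2.33% called lower in the 3 comparisons. The 8 macrophage genes summed to 49.1 to 57.6 CPM in sham pools and 59.8 to 91.5 CPM in axotomised pools, and 2, 3 and 0 of them rose in the 3 comparisons, Mrc1 and Itgam in the first pair and Cx3cr1 in EE + SNA against SH Sham. The neutrophil genes S100a8, S100a9 and their companions summed to 77.3 to 240 CPM in sham pools and 128 to 780 CPM in axotomised pools, with EE + SNA 3 the highest, and 1 of 7 tested, Retnlg, rose in EE + SNA against SH Sham. Sensory neuron genes summed to 7508 to 8579 CPM in sham and 7018 to 7649 CPM in axotomised pools, and 3, 3 and 2 of 8 fell, Isl1 and Prdm12 in each. Of 8 satellite and Schwann cell genes, 1, 3 and 1 rose, with Glul in each, and all 6 axotomy response genes rose in each comparison. The part of these cells in the levels of the 4 members was not tested.

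**Figure D5:**
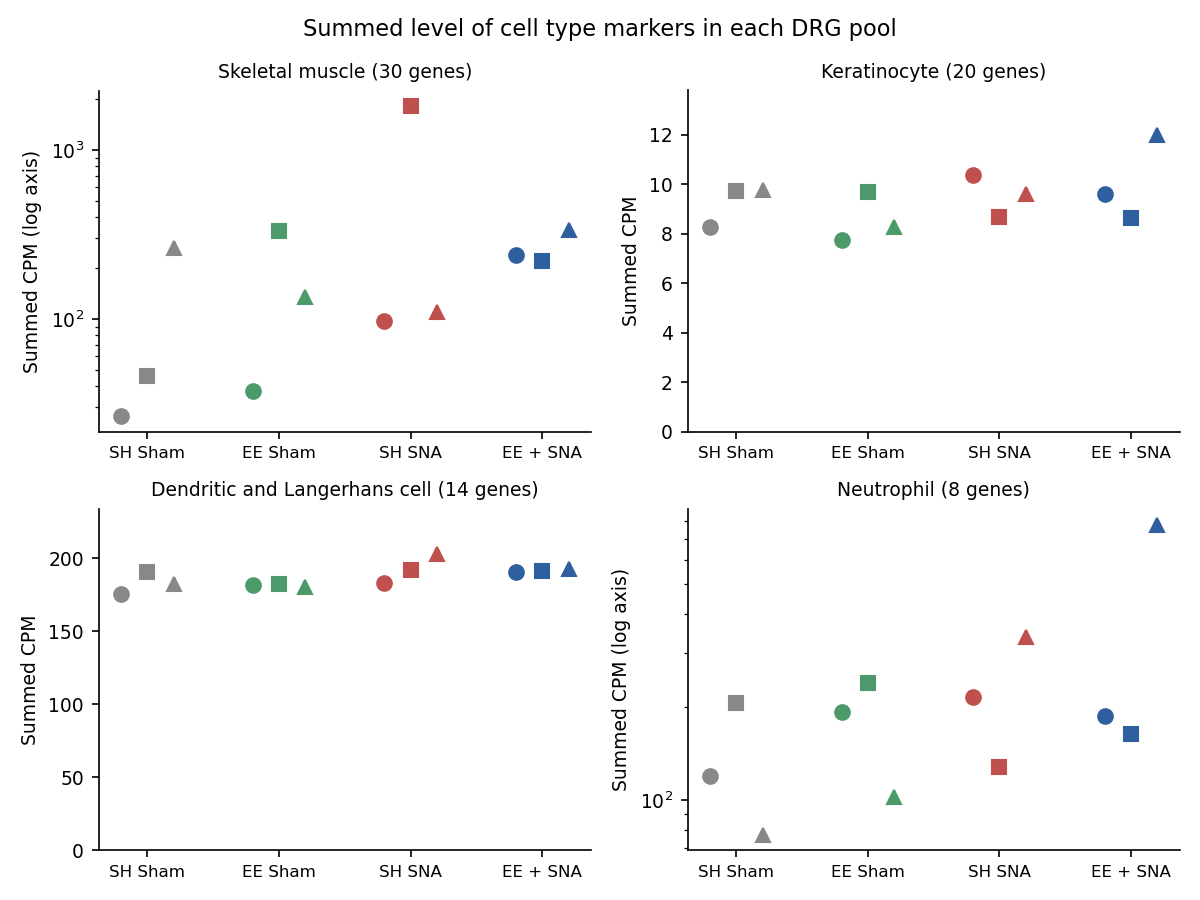
Summed CPM of marker genes of skeletal muscle and neutrophils (log y axes) and of keratinocytes and of dendritic and Langerhans cells (linear y axes from 0) in each pool, with circles, squares and triangles for replicates 1, 2 and 3. Skeletal muscle peaks at 1823 CPM in SH SNA 2 and neutrophil genes at 780 CPM in EE + SNA 3, while the dendritic and Langerhans cell sum stays between 176 and 203 CPM.

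Housing was compared with surgery held constant, using the same samples that chose the genes but in another contrast. Between EE Sham and SH Sham, 0 of the 4 members passed edgeR's quasi-likelihood test after adjustment, 0 had an unadjusted P-value under 0.05 and DESeq2 called 0. Of all genes, 0.00616% passed after adjustment and 2.97% before, which is 1 gene after adjustment, against 29 with the replicate number as a block. The log2 differences were −0.09 for Lce1g (95% interval −1.83 to 1.65), 1.09 for Igfn1 (−0.39 to 2.58), 1.11 for Abra (−1.21 to 3.42) and −0.11 for Cd207 (−1.31 to 1.08). Each of these groups held 5 to 35 reads of a gene. Replicate numbers appeared to pair the pools in this comparison, and with the number as a block Igfn1 was at 0.93 ± 0.46 with an unadjusted P-value of 0.0450 and an adjusted value of 0.934.

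Between EE + SNA and SH SNA, 0 of the 4 members passed after adjustment by edgeR or DESeq2, as for 0% of all genes, and 1 had an unadjusted P-value under 0.05, as for 4.1% of all genes. That member was Igfn1, which was lower in EE + SNA at −1.0 (−1.94 to −0.058, unadjusted P-value 0.0387, adjusted 0.989). Its difference rested on the pool with the most muscle RNA, being −0.22 with an unadjusted P-value of 0.455 without SH SNA 2. The differences of the other members were −0.02 for Lce1g (−0.60 to 0.56), 0.25 for Abra (−0.52 to 1.01) and −0.09 for Cd207 (−0.58 to 0.39). For Lce1g and Cd207 these intervals cover at most a change of 0.60 on the log2 scale. Their fold changes after axotomy are larger, but the genes were chosen for the size of those values.

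The interaction asks whether the axotomy change differs between housings and used all 12 pools. No member passed after adjustment by edgeR or DESeq2, as for 0% of all genes, while 1 member had an unadjusted P-value under 0.05, as for 2.61% of all genes. Igfn1 had an interaction of −2.09 (−4.07 to −0.10, unadjusted P-value 0.0366, adjusted 1.0), meaning a smaller change in EE. Without EE Sham 2 it was −0.64 and without SH SNA 2 −1.31, and without both, an alternative chosen after these values were seen, it was 0.14 ± 0.71. Without the filter on low counts its adjusted P-value was 0.00563, the one setting in which a member was called. Lce1g was at 0.07 (−1.60 to 1.73), Abra at −0.86 (−3.22 to 1.5) and Cd207 at 0.02 (−1.05 to 1.09).

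Across the 12 pools, the gene most like Lce1g was Cd207, with Pearson's r of 0.966 between their log2 CPM, followed by Dennd1a, Ypel4, Map7d1 and Pex5 at 0.955 to 0.960. The genes most like Cd207 were Itpkc, which encodes an inositol trisphosphate kinase, at 0.984, then Map7d1, Gpr153, Ubn1 and Nfil3, a basic leucine zipper repressor, at 0.971 to 0.978. For Abra they were Rnf34, Trafd1, Hist1h1c, Prkcdbp and Pkib, at 0.960 to 0.968. For Igfn1 they included Lrrc2, Gfpt2, Oas1e and Aprt, at 0.927 to 0.947. The remaining pairs of members had r of 0.817 to 0.840. These values describe 12 pools that share libraries and fall into sham and axotomised groups, so they are given without a test.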

How the data were processed

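Per the labels and the study's methods, mRNA libraries of pooled sciatic DRG were sequenced and the authors deposited read counts per gene and FPKM values (fragments scaled by transcript length and library size). The submitters' processing notes name TopHat2 2.0.12, Bowtie2 2.2.3, SAMtools 0.1.19, HTSeq 0.6.0, edgeR 3.8.6 and the mm10 build. Whether counting used strand is not given in the sources used here. The 5 summary lines of the counter held 56.3 to 56.8% of each column and were left out. Most of this, 46.7 to 47.6% of each column, was reads that the counter assigned to no feature. A pool with 0 reads of a gene allows up to 3 counts, and this floor covers counting error only.

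The deposited counts were fitted in R 4.3.3 with edgeR 4.0.16 (TMM factors, filterByExpr with a minimum count of 10 and total of 15, quasi-likelihood test, Benjamini-Hochberg adjustment over 16238 genes, threshold 0.05). DESeq2 1.42.0 and limma on log2(FPKM + 1) and log2(FPKM + 0.1) were alternatives, and the fit was tested on simulated data. P-values measure the spread between these pools only. The members and gene lists were chosen with earlier results of these data known. Named genes were the 4 members, their neighbours by rank, the 5 genes of highest Pearson's r with each member on log2 CPM with a prior count of 2, Lce and Sprr genes with at least 10 reads, and listed genes that passed the test or were the most abundant of their list. Markers named for few reads (Krt5, Flg, Flg2, Ivl, Casp14, Epcam, Ccr7 and Xcr1) and other detected keratinocyte genes were chosen after their values were seen. Some genes that met these rules, and the number of genes that fell in the actin, MRTF and SRF list, are not reported here. FPKM was used to compare levels between genes. Replicate pools differed by more than sampling noise in every group.

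Same-numbered EE Sham and SH Sham pools deviated together (r of 0.111 to 0.331, against −0.332 to 0.194 for different numbers). The criterion for pairs was a set minimum of r for every same-numbered pair, and it was met in that comparison alone. In EE + SNA against SH SNA it was not met, though r was 0.0573 to 0.126 for the same number and −0.123 to 0.0403 for different numbers. A fit with the replicate number as a block was run for every comparison. Transcript windows were read from GENCODE M21 and promoters from RefSeq on GRCm38.p6.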

Additional observations from a re-analysis of the deposited data

How the results depend on the processing

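In all 192 alternative values for the axotomy changes of the 4 members, the direction stayed upward, the lowest being 0.14 on the log2 scale. These contrasts chose the genes from the same pools, so an upward direction was built in and is no support for the changes. Of the 116 listed genes tested, edgeR called 23 in SH SNA against SH Sham, 32 in EE + SNA against SH Sham and 14 against EE Sham. Without the filter on low counts these were 72, 70 and 49, and with limma on log2(FPKM + 0.1) 14, 11 and 4. For EE + SNA against SH Sham the number was 17 with limma on log2(FPKM + 1) and 20 with the muscle covariate, and against EE Sham it was 25 without SH SNA 2 and EE Sham 2. The covariate and the removal of both pools were chosen after seeing the data. With 1 pool left out the ranges were 17 to 35, 18 to 50 and 8 to 33. Without the filter 1 member, Igfn1, was called in the interaction, against 0 with it. The cause of these shifts was not tested.

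Without SH SNA 2 and EE Sham 2, the housing difference between shams was −0.36 for Igfn1, and the interaction 0.14 for Igfn1 and 0.052 for Abra. With limma the interaction was 0.057 for Abra on log2(FPKM + 1), and for Cd207 −0.023 and −0.0021 with the pseudocounts 1 and 0.1. With 1 pool left out, EE Sham against SH Sham ranged from −0.98 to 0.49 for Lce1g, −0.36 to 1.57 for Igfn1 and −0.43 to 0.23 for Cd207. EE + SNA against SH SNA ranged from −0.20 to 0.17 for Lce1g and −0.071 to 0.65 for Abra, and the interaction from −0.51 to 0.95 for Lce1g and −0.33 to 0.33 for Cd207. With the replicate block the listed genes called were 20, 31 and 17, and 0 members were called in the housing comparisons. Depth limits these values, with 5 to 35 reads of a member in each sham group.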
